A study of Mus musculus with 17 samples.

Results

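The CXC chemokines of mouse macrophages were followed over 13 polyA RNA-seq libraries. The genes were taken from the deposited expression table by symbol, and all 10 symbols sought had a row among the 24453 gene models: Cxcl1, Cxcl2, Cxcl3, Cxcl9, Cxcl10, Cxcl11, Cxcl14, Cxcl16, Pf4 and Ppbp. The study examined how AP-1 transcription factors act in macrophages. Immortalized bone marrow-derived macrophages (iBMDMs) came from C57Bl/6EiJ marrow transformed by a retrovirus with myc and a mutant BRAF. They expressed Cas9, received a lentivirus carrying guides whose target was Atf3 in the lines named Atf3KO, Jun in JunKO and Jund in JunDKO, and were sorted on a fluorescent protein encoded by the virus. The control (Scramble) carried a scramble guide and is named zsGreen in its titles. Each of these 4 groups had 2 libraries, all labelled vehicle (the titles of Scramble alone leave this out), and no source states that a line was a single clone. Thioglycollate-elicited macrophages (TGEMs) are primary peritoneal cells from unedited mice. They were given vehicle or, for 1 h, KLA (Kdo2 lipid A), which activates the endotoxin receptor TLR4. There was 1 library of each treatment from C57Bl/6EiJ, while Balb/cJ had 1 for vehicle and 2 for KLA. The labels do not say that libraries of a group came from separate cultures or animals, so the p-values measure the spread between libraries, which may be technical.

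CXC chemokines are small secreted proteins that direct leukocyte movement through receptors of the CXCR family. Cxcl1, Cxcl2, Cxcl3 and Ppbp carry the ELR sequence before their first cysteines and draw neutrophils through Cxcr2, and Cxcl9, Cxcl10 and Cxcl11 are interferon-inducible and draw activated T and NK cells through Cxcr3. Pf4 and Ppbp are best known as platelet granule proteins, Cxcl16 is made as a membrane protein that can be shed and binds Cxcr6 in either form, and Cxcl14 is a broadly expressed member of the family.

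Library depth was 1553296 to 18444437 reads, and exonic reads made up 74.1% to 86.4% of each library. Replicate libraries were further apart than read sampling alone gives (chi-square divided by its degrees of freedom, 3.54 to 75.2). The guides' targets did not fall at the RNA level throughout: Atf3 measured 154 and 169 RPKM (reads per kilobase of exon, scaled to library depth) in the libraries labelled Atf3KO and 80.7 and 77.4 in Scramble, while Jun measured 26.2 and 20.5 in JunKO against 17.6 and 18.5, and Jund 6.94 and 6.07 in JunDKO against 9.19 and 8.33. Exonic RNA does not show whether a reading frame was edited, and the paper reports that western blots established the knockouts at the protein level. All 7 macrophage markers had reads in both kinds of cell. Of 9 neutrophil markers, S100a9, Ly6g, Retnlg and Camp were listed at 0 in all 13 libraries, and Mpo, Elane and Ngp had at most 7 reads in a TGEM library and 0 in iBMDMs. Csf3r, which other myeloid cells also express, had reads throughout, with a mean of 2.92 RPKM in Scramble. By limma-trend it rose in Atf3KO (mean 11.1 RPKM, adjusted p = 0.00326) and JunDKO (mean 13.3 RPKM, adjusted p = 0.00367). S100a8 had a mean of 34.0 RPKM in Scramble and 0 reads in JunDKO. The part of these markers in the results was not tested. All libraries are labelled male, yet Xist, a transcript of the inactive X, had 863 to 8676 reads in each TGEM library and 0 to 3 in each iBMDM library. In bulk samples, fewer cells of a type and less RNA per cell cannot be told apart.

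On GRCm38, the build the authors call mm10, 8 of the 10 genes lie on chromosome 5 (coordinates from the deposited table). Ppbp, Pf4, Cxcl3, Cxcl1 and Cxcl2 stand in this order on the plus strand within 137 kb (90768518 to 90905938), with 2374 bases between Ppbp and Pf4. Cxcl9, Cxcl10 and Cxcl11 lie on the minus strand within 41.9 kb (92321331 to 92363277). Cxcl14 lies on chromosome 13 (56288643 to 56296551, minus strand) and Cxcl16 on chromosome 11 (70454234 to 70459984, minus strand). Among the 9 members for which this was measured (Cxcl11 was not), Cxcl2 and Cxcl3 had the most sequence repeated elsewhere: 93.7% and 93.3% of the 32-base words of their transcripts occurred at a single place in the genome.

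RefSeq promoter sequence was given for 8 members, and Cxcl11 and Cxcl16 had no entry. The 250 bases before the annotated start (GRCm38.p6, written 5′ to 3′ on the gene's strand) are shown for Cxcl1, Cxcl2, Cxcl3 and Cxcl10, the members whose promoters hold an NF-κB match. Capitals mark every match on either strand to the NF-κB consensus of 10 letters and to the AP-1 motif TGANTCA.
Cxcl1 (chr5:90890995-90891244, plus strand): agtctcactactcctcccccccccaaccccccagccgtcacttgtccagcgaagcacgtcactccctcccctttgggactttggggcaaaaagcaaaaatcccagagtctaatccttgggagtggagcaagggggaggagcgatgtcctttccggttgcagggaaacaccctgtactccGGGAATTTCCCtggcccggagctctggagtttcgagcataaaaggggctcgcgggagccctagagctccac
Cxcl2 (chr5:90903649-90903898, plus strand): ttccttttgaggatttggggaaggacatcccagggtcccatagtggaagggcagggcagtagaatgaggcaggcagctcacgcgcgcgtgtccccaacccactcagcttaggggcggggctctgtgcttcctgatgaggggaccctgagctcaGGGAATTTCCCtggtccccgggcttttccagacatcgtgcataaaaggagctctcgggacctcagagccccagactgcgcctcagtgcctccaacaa
Cxcl3 (chr5:90785851-90786100, plus strand): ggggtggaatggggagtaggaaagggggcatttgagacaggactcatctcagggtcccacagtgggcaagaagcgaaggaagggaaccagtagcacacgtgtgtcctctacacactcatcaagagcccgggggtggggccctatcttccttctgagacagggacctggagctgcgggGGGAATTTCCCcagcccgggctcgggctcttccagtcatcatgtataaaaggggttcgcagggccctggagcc
Cxcl10 (chr5:92348890-92349139, minus strand): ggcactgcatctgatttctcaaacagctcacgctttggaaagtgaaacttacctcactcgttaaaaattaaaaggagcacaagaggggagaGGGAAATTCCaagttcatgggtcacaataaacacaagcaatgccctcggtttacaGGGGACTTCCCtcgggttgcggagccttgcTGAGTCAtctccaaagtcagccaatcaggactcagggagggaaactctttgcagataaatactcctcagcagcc
Cxcl1, Cxcl2 and Cxcl3 each hold the run GGGAATTTCCC, which holds 2 overlapping matches. Counting the base just before the start as -1, the run begins at -71 in Cxcl1, -97 in Cxcl2 and -73 in Cxcl3. Cxcl10 holds NF-κB matches that begin at -159, -104 and -103, of which the latter pair overlap, an AP-1 match at -74 and a match to the interferon-response core (GAAA, any base, then TGAAA) at -213. Over all members, 4 of 8 promoters held an NF-κB match, against 7.25% of 32817 mouse promoter windows of the same length. AP-1 matches were in 2 of 8 (Cxcl10 and Ppbp; 6.75% of all windows), the interferon-response core in 1 of 8 (0.680%) and the CRE motif TGACGTCA in 0 of 8 (1.55%). The AP-1 letters searched allow any central base, while the paper writes this motif with C or G there. The Cxcl10 match (TGAGTCA) fits the paper's form, and the Ppbp match (TGAATCA) does not. A match describes letters and shows no binding.

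**Figure D1:**
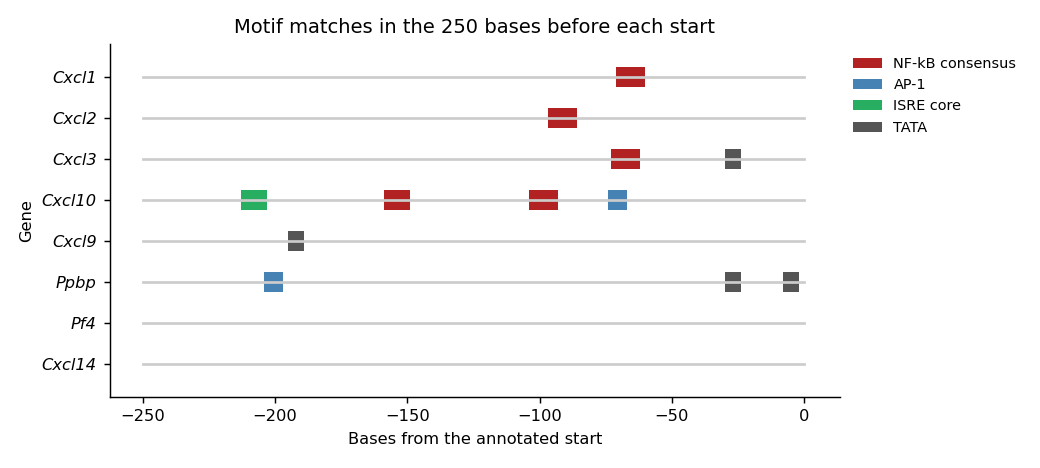
Motif matches in the 250 bases before the start of 8 CXC chemokine genes, by distance from the start (x axis, bases) and gene (y axis). Boxes mark matches to the NF-κB consensus, AP-1, the interferon-response (ISRE) core and TATAAA on either strand. Cxcl1, Cxcl2, Cxcl3 and Cxcl10 hold NF-κB matches, and Pf4 and Cxcl14 hold none of these motifs.

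In vehicle-treated iBMDMs the CXC chemokine RNA came mainly from Cxcl16 and Pf4, with Cxcl10 beside them in Scramble and JunKO. The summed level of the 10 genes was 118 and 111 RPKM in Scramble, 126 and 146 in Atf3KO. JunKO reached 187 and 178 RPKM, JunDKO 378 and 415. Pf4 made up 9.02% and 18.9% of that sum in Scramble, and 68.3% and 71.7% in JunDKO. Cxcl10 made up 32.9% and 28.3% in Scramble, and 4.12% and 3.29% in Atf3KO. Cxcl1, Cxcl3 and Cxcl11 had 0 reads in all 8 iBMDM libraries, so that a count of 0 over these libraries allows up to 0.0822 RPKM of Cxcl1 and 0.0766 of Cxcl3 (3 reads, counting error only). An entry of 0 can also be a failed count, since 2 of 16 genes that every cell uses were listed at 0 in some library. Cxcl1 and Cxcl3 did have reads in TGEM libraries of the same table. Cxcl9 had 1 read, in Scramble replicate 2. Cxcl2, Cxcl10, Cxcl14, Cxcl16 and Pf4, the 5 members that averaged 1 RPKM or more in iBMDMs, were tested with all other genes at that level by limma-trend on log2(RPKM + 1), on which scale changes of low genes are understated. A gene was said to rise or fall at an adjusted p under 0.05 over all tested genes.

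**Figure D2:**
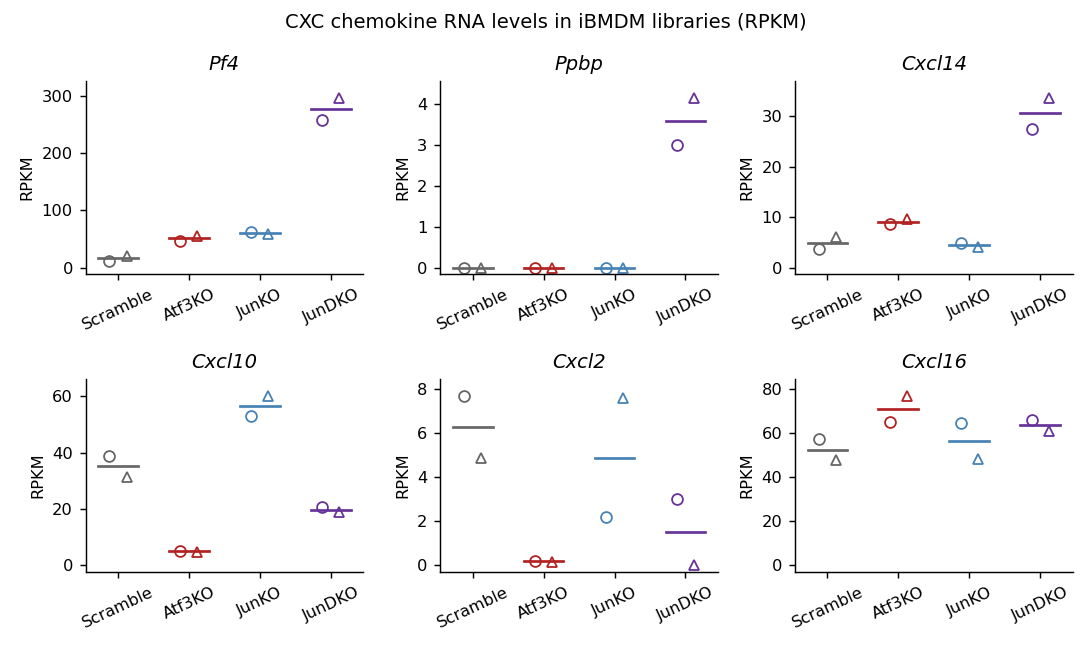
Level of 6 CXC chemokines in each iBMDM library (y axis, RPKM, with a scale for each gene). Circles are replicate 1, triangles replicate 2 and lines group means (n = 2 libraries per group). Both JunDKO libraries stand above all others for Pf4, Ppbp and Cxcl14, and both Atf3KO libraries stand below all others for Cxcl10.

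Pf4, the platelet factor whose protein binds heparin, was the member that passed in every knockout. Its level was 10.7 and 21.0 RPKM in the Scramble libraries and 47.2 and 54.8 in those of Atf3KO. JunKO had 62.4 and 58.0 RPKM, and JunDKO had 258 and 297. Every knockout library lay above both Scramble libraries. The log2 difference from Scramble was 1.69 ± 0.28 (here and below ± SE, with 2 libraries in each group, and limma-trend adjusted p = 0.00344) in Atf3KO and 1.93 ± 0.28 (adjusted p = 0.0463) in JunKO. Of 15 alternatives 10 ended the JunKO call, the fit with the replicate block among them (adjusted p = 0.0877), and without JunKO replicate 1 its adjusted p was 0.284. In JunDKO the difference was 4.12 ± 0.28 (adjusted p = 1.18e-04). Pf4 was also higher in JunDKO than in JunKO (2.18 ± 0.28, adjusted p = 0.00318, and 0.0543 without JunDKO replicate 2) and in Atf3KO it was lower than in JunDKO (-2.42 ± 0.28, adjusted p = 6.56e-04). Atf3KO and JunKO did not differ by the test (-0.24, 95% interval -0.89 to 0.41, adjusted p = 0.530). The order of Pf4 was therefore JunDKO, then JunKO and Atf3KO without a tested difference, then Scramble.

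Ppbp, the neighbor of Pf4 and precursor of a neutrophil attractant, had reads in JunDKO and in no other group. It measured 2.99 and 4.14 RPKM in the JunDKO libraries, from 5 and 82 reads, and 0 in the 6 other iBMDM libraries and the 5 TGEM libraries. Against 3 reads over the group, its pooled level in JunDKO was at least 5.28-fold higher than in Scramble, at least 4.96-fold higher than in JunKO and at least 16.9-fold higher than in Atf3KO. Ppbp missed the filter with a mean of 0.891 RPKM over the iBMDM libraries. Of the platelet receptor genes, Gp9, Gp1bb and Gp6 were at 0 in both JunDKO libraries. Gp1ba had 4 and 16 reads there (0.945 and 0.318 RPKM), 1 and 2 in Scramble (0.190 and 0.429 RPKM) and 17 and 31 in Atf3KO (1.42 and 1.57 RPKM), and Itga2b had 0 and 2 reads in JunDKO and 0 in the other iBMDM libraries. Their part in the result was not tested.

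Cxcl14 was highest in JunDKO as well. Scramble had 3.70 and 6.10 RPKM, Atf3KO 8.62 and 9.56, JunKO 4.83 and 4.16, and JunDKO 27.6 and 33.7. The JunDKO libraries did not overlap with any other group, and JunKO lay within the range of Scramble. Cxcl14 rose in JunDKO over Scramble by 2.45 ± 0.25 on the log2 scale (limma-trend adjusted p = 7.17e-04) and over JunKO by 2.52 ± 0.25 (adjusted p = 7.94e-04), and was lower in Atf3KO than in JunDKO (-1.64 ± 0.25, adjusted p = 0.00184). The rise in Atf3KO over Scramble was 0.80 ± 0.25 (adjusted p = 0.0328). Of 14 alternatives 8 ended that call, and with a trend on GC content removed the value was 0.36 (adjusted p = 0.315). JunKO against Scramble gave -0.07 (95% interval -0.64 to 0.50, adjusted p = 0.981).

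Cxcl10, the interferon-inducible ligand of Cxcr3, fell in Atf3KO and to a smaller extent in JunDKO. Its level was 38.8 and 31.5 RPKM in Scramble against 5.20 and 4.80 in Atf3KO, while JunKO had 53.1 and 60.3 RPKM, JunDKO 20.6 and 18.8, and no 2 groups overlapped. The log2 difference from Scramble was -2.59 ± 0.19 (limma-trend adjusted p = 1.57e-04) in Atf3KO and -0.80 ± 0.19 (adjusted p = 0.0299) in JunDKO. Of 15 alternatives 6 ended the JunDKO call, which included leaving out any 1 Scramble or JunDKO library (adjusted p of 0.0721 to 0.176). Atf3KO lay below JunDKO (-1.79 ± 0.19, adjusted p = 4.44e-04) and JunDKO below JunKO (-1.48 ± 0.19, adjusted p = 0.00285). JunKO against Scramble gave 0.68 (95% interval 0.25 to 1.11, which is not adjusted for the number of genes; adjusted p = 0.330).

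Cxcl2, a neutrophil attractant, was the only ELR member with reads in every iBMDM group, and it was low. Scramble had 7.70 and 4.88 RPKM (16 and 9 reads) and Atf3KO 0.211 and 0.128 (1 read each). JunKO had 2.18 and 7.58 RPKM, JunDKO 2.99 and 0 (5 and 0 reads). The 0 in JunDKO was from the deeper library (18444437 reads against 1553296), and the pooled JunDKO level was 0.232 RPKM beside 6.37 in Scramble. The Atf3KO libraries lay below both Scramble libraries, and the range of JunKO overlapped that of Scramble. The read rate was 39.9 times higher in Scramble than in Atf3KO (exact 95% interval 9.96 to 348, counting error only), and the log2 difference was -2.61 ± 0.67 (limma-trend adjusted p = 0.0169). Without any 1 of the 4 libraries this adjusted p was 0.0607 to 0.0889. JunDKO against Scramble gave -1.84 ± 0.67 (adjusted p = 0.121), and limma-voom on the recovered reads gave -6.38 (adjusted p = 0.00557). In JunKO the difference was -0.45 ± 0.67 (adjusted p = 0.938).

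Cxcl16, which Adam10 sheds from the cell surface, passed in no knockout comparison. Scramble had 57.3 and 47.6 RPKM, Atf3KO 65.0 and 76.9, JunKO 64.6 and 48.0, and JunDKO 65.9 and 60.9. The log2 difference from Scramble was 0.43 (95% interval -0.04 to 0.90, limma-trend adjusted p = 0.124) in Atf3KO, 0.09 (-0.38 to 0.56) in JunKO and 0.27 (-0.20 to 0.75) in JunDKO. With library medians made equal, the last value was -0.02.

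**Figure D3:**
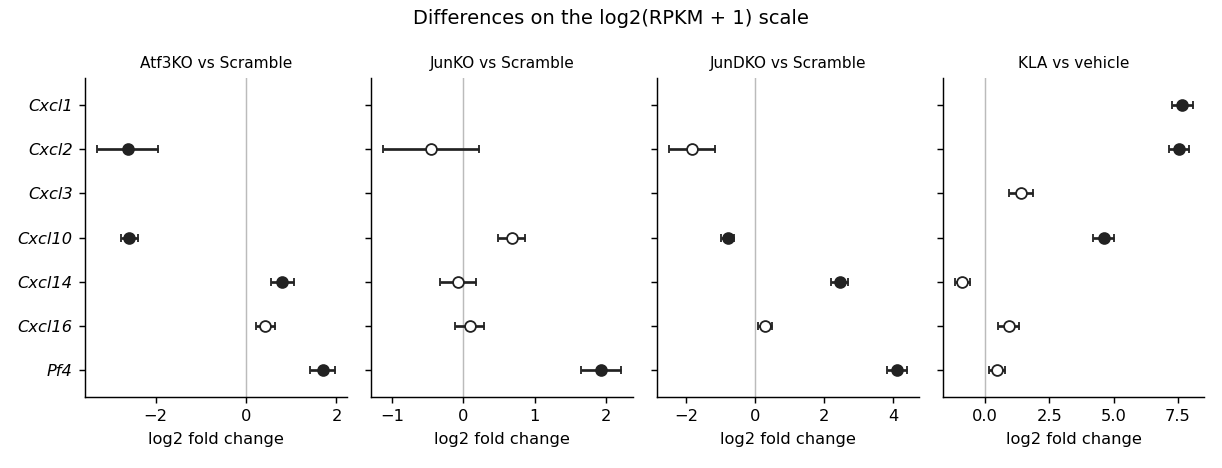
Log2 fold change of each tested CXC chemokine in 4 comparisons (x axis, difference on the log2(RPKM + 1) scale, with a different range in each panel, against gene). Points are fitted differences and bars their SE from limma-trend, and filled points passed at an adjusted p under 0.05. Pf4 is filled in all 3 knockouts, and Cxcl1, Cxcl2 and Cxcl10 are filled for KLA. The Cxcl10 call for KLA is not read, because it met the filter through the KLA libraries.

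Thus 4 of the 5 tested members passed in Atf3KO (Cxcl14 and Pf4 higher, Cxcl2 and Cxcl10 lower), where 41.2% of all tested genes passed (20.7% higher, 20.6% lower). In JunKO 1 of 5 passed against 0.281% of all genes (0.159% higher, 0.122% lower). In JunDKO 3 of 5 passed (Cxcl14 and Pf4 higher, Cxcl10 lower) against 11.7% (6.93% higher, 4.82% lower). Between knockouts 3 of 5 passed in each of Atf3KO against JunDKO (40.7% of all genes, 14.9% higher and 25.9% lower), Atf3KO against JunKO (35.5%, 17% higher and 18.5% lower) and JunDKO against JunKO (8.14%, 4.33% higher and 3.81% lower). In Atf3KO against JunKO these were Cxcl10 (-3.26 ± 0.19, limma-trend adjusted p = 8.77e-05), Cxcl2 (-2.16 ± 0.67, adjusted p = 0.0388) and Cxcl14 (0.88 ± 0.25, adjusted p = 0.0278), of which Cxcl2 lost its call in 9 and Cxcl14 in 7 of 14 alternatives. The comparisons with Scramble share those 2 libraries. The median of all genes tested in JunDKO was 0.23 above Scramble. Of the genes that passed, 59.0% were higher, and 31.0% with library medians made equal, under which Pf4 was at 3.82, Cxcl14 at 2.17 and Cxcl10 at -1.09. In the same way the share of passing genes that were higher went from 53.2% to 27.2% in JunDKO against JunKO and from 36.5% to 48.0% in Atf3KO against JunDKO. Reads fell on 10425 and 10631 gene models in Atf3KO and on 11884 to 12533 in the remaining iBMDM libraries, and Atf3KO replicate 2 carries a later date in its title. Without that library the Atf3KO values were -2.54 for Cxcl10 (adjusted p = 0.00302), 1.59 for Pf4 (0.0263), -2.56 for Cxcl2 (0.0864) and 0.74 for Cxcl14 (0.119).

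The receptors and enzymes that act with these ligands were examined as lists. Of 11 CXC and atypical chemokine receptors, 3 were tested in iBMDMs. Cxcr4, the receptor of Cxcl12, rose in JunDKO (0.99, limma-trend adjusted p = 0.0100), from a mean of 23.8 to 48.0 RPKM. Ccrl2, an atypical receptor that binds chemerin, averaged 2.18 RPKM in Scramble (8 and 6 reads) and 0.183 in Atf3KO (1 and 3 reads). Its call in Atf3KO (-1.42) is not read, because it met the filter through the Scramble libraries, where it is high. Of 6 enzymes that process chemokines, all 4 tested fell in Atf3KO, where 20.6% of all genes were lower, among them Adam10 (-0.93, adjusted p = 0.00814), from 49.6 to 25.8 RPKM, and the collagenase Mmp8 (-2.74, adjusted p = 5.36e-04). The gelatinase Mmp9 also fell in Atf3KO (-1.22, adjusted p = 0.0163) and in JunDKO (-1.51, adjusted p = 0.0183), and it rose in JunKO (2.65, adjusted p = 0.0215).

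Among 14 tested genes of the interferon axis, 3 fell and 2 rose in Atf3KO, where 41.2% of all genes passed, and 3 fell in JunDKO, where 4.82% of all genes were lower. Ifit1, an interferon-induced RNA-binding protein, fell from a mean of 58.7 RPKM in Scramble to 6.79 in Atf3KO (-2.93, limma-trend adjusted p = 9.64e-05) and 15.1 in JunDKO (-1.88, adjusted p = 6.38e-04). In Atf3KO the ubiquitin-like Isg15 (0.85, adjusted p = 0.00723) and the transcription factor Stat2 (0.77, adjusted p = 0.0100) rose. Ifit3 (-1.28, adjusted p = 0.00572) and Ifit2 (-1.33, adjusted p = 0.0464) fell in JunDKO. The median of the list was -0.16 in Atf3KO and -0.09 in JunDKO, beside 0.05 and 0.23 over all genes tested. Of 12 genes of NF-κB feedback and mRNA decay, 3 rose and 2 fell in Atf3KO, where 41.2% of all genes passed, and 2 rose and 1 fell in JunDKO, where 11.7% did. Rel, an NF-κB subunit, had 33 and 21 reads in Scramble (6.65 and 4.77 RPKM) and 0 in both Atf3KO libraries (limma-trend adjusted p = 5.46e-04). Tnfaip3, an inhibitor of NF-κB signaling, fell in both, from a mean of 20.0 RPKM to 8.61 (-1.12, adjusted p = 0.00344) and 5.50 (-1.69, adjusted p = 0.00111). Zfp36l1, which promotes decay of AU-rich mRNAs, rose in both (1.79, adjusted p = 0.00190, and 2.08, adjusted p = 0.00181), and its relative Zfp36 rose in JunDKO (1.15, adjusted p = 0.00795). In JunKO the smallest limma-trend adjusted p of either list was 0.329, of Zfp36.

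In TGEMs, 1 h of KLA moved the make-up of CXC chemokine RNA to Cxcl1 and Cxcl2. The summed level of the 10 genes was 97.1 RPKM in the C57Bl/6EiJ and 43.8 in the Balb/cJ vehicle library, and 1823 in the C57Bl/6EiJ and 4144 and 3288 in the Balb/cJ KLA libraries. Cxcl1 and Cxcl2 made up 35.4% and 58.3% of the sum in the C57Bl/6EiJ KLA library, 42.3% and 53.8% in the first and 52.5% and 44.5% in the second Balb/cJ KLA library. In the vehicle libraries their shares were 5.56% and 8.72% (C57Bl/6EiJ) and 9.31% and 12.7% (Balb/cJ).

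**Figure D4:**
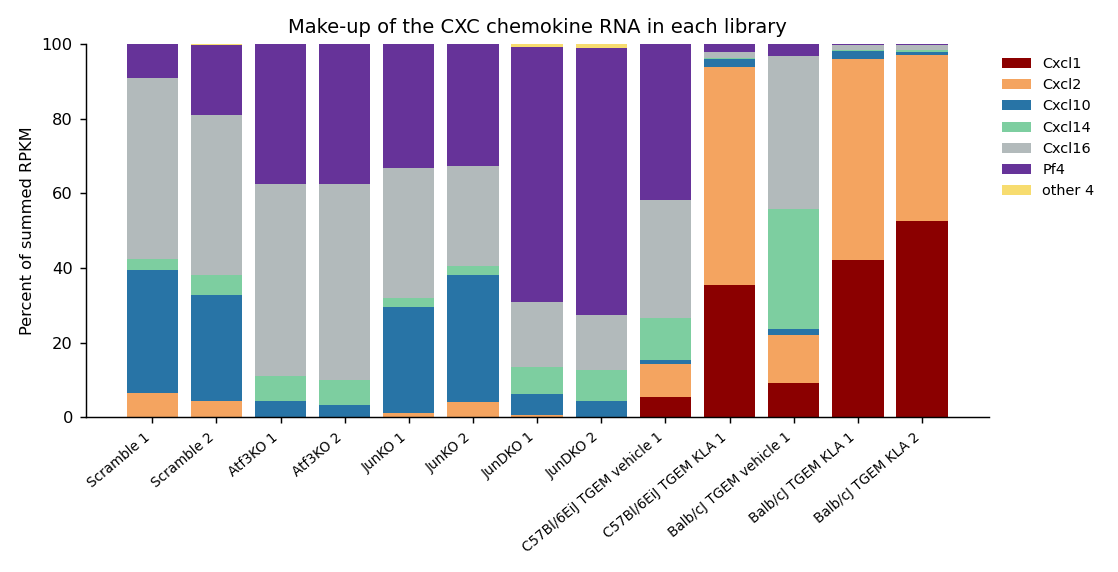
Share of each CXC chemokine in the summed RPKM of the 10 genes (y axis, percent) in the 13 libraries (x axis). Pf4 takes 68.3% and 71.7% of the JunDKO bars, and Cxcl1 and Cxcl2 fill most of the 3 KLA bars.

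Cxcl1, which acts on neutrophils through Cxcr2, measured 5.39 RPKM in the C57Bl/6EiJ and 4.07 in the Balb/cJ vehicle library, and 646 in the C57Bl/6EiJ and 1752 and 1727 in the Balb/cJ KLA libraries. Cxcl2 measured 8.47 and 5.55 RPKM in the same vehicle libraries, and 1064, 2230 and 1464 in the KLA libraries. For both genes every KLA library lay far above both vehicle libraries. Over strains, Cxcl1 rose by 7.67 ± 0.41 on the log2 scale (SE, 3 KLA and 2 vehicle libraries, limma-trend adjusted p = 2.78e-04) and Cxcl2 by 7.55 ± 0.37 (adjusted p = 1.96e-04). Between libraries of 1 strain and 1 label date the ratio of RPKM was 120 for Cxcl1 and 126 for Cxcl2 in C57Bl/6EiJ, and 430 and 402 in Balb/cJ. Their promoters hold the runs of NF-κB letters shown above.

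Cxcl3, the third member of that group, stayed low. It had 0 reads in both vehicle libraries, and 0.911 RPKM (3 reads) in the C57Bl/6EiJ and 3.84 and 1.35 RPKM (67 and 9 reads) in the Balb/cJ KLA libraries. Each KLA library had reads and no vehicle library did. The pooled KLA level was at least 13.4-fold higher than the limit of 3 reads over both vehicle libraries, and at least 2.49-fold higher within Balb/cJ, which gave 76 of the 79 KLA reads, while the limma-trend test gave 1.40 ± 0.45 (adjusted p = 0.235). Its promoter holds the same 11 letters as those of Cxcl1 and Cxcl2.

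Cxcl10 measured 1.20 RPKM in the C57Bl/6EiJ and 0.780 in the Balb/cJ vehicle library (15 and 2 reads), and 42.4 in the C57Bl/6EiJ and 81.1 and 30.8 in the Balb/cJ KLA libraries. Every KLA library lay above both vehicle libraries. Within Balb/cJ the read rate was 86.1 times higher with KLA (exact 95% interval 23.8 to 712, counting error only). The fitted log2 difference was 4.61 ± 0.42 (limma-trend adjusted p = 0.00231). Without the Balb/cJ vehicle library it was 4.30, and the call ended. The call is not read here, because Cxcl10, at a mean of 0.991 RPKM with vehicle, met the filter through the KLA libraries. Cxcl11 had 9 reads in Balb/cJ KLA replicate 1 (0.331 RPKM) and 0 in the other 4 TGEM libraries. Cxcl9 had 4 reads in the C57Bl/6EiJ vehicle library, 3 in Balb/cJ KLA replicate 1 and 0 in the rest.

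The other members did not pass with KLA. Cxcl14 measured 10.9 RPKM with vehicle and 3.21 with KLA in C57Bl/6EiJ, and 14.1 with vehicle and 11.0 and 9.51 with KLA in Balb/cJ (-0.88 ± 0.30, limma-trend adjusted p = 0.261). Cxcl16 measured 30.7 and 30.2 RPKM in C57Bl/6EiJ, and 17.8 with vehicle and 62.8 and 51.6 with KLA in Balb/cJ (0.92 ± 0.39, adjusted p = 0.335). Cxcl16 was thus nearly level in the C57Bl/6EiJ pair and higher in both Balb/cJ KLA libraries. Its interaction of KLA and strain was 1.64 ± 0.53 with an unadjusted p of 0.0289 and an adjusted p of 0.589. Pf4 measured 40.3 RPKM with vehicle and 36.9 with KLA in C57Bl/6EiJ. In Balb/cJ it measured 1.46 RPKM with vehicle (2 reads) and 3.38 and 3.91 with KLA (34 and 15 reads). Within Balb/cJ the read rate was 2.41 times higher with KLA. Its exact 95% interval was 0.632 to 20.4 (counting error only), which leaves the direction open. With strain in the fit the log2 difference was 0.47 ± 0.30 (limma-trend adjusted p = 0.485). Ppbp had 0 reads in all 5 TGEM libraries, which allows up to 0.0684 RPKM. In all, 3 of 7 tested members passed, all higher, where 1.53% of all tested genes passed (1.29% higher, 0.232% lower). The count includes Cxcl10 among the passing and Cxcl3 among the tested members, with vehicle means of 0.991 and 0 RPKM. Both met the filter through the KLA libraries, where they are high. Nothing is therefore read from the count beyond the calls of Cxcl1 and Cxcl2.

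**Figure D5:**
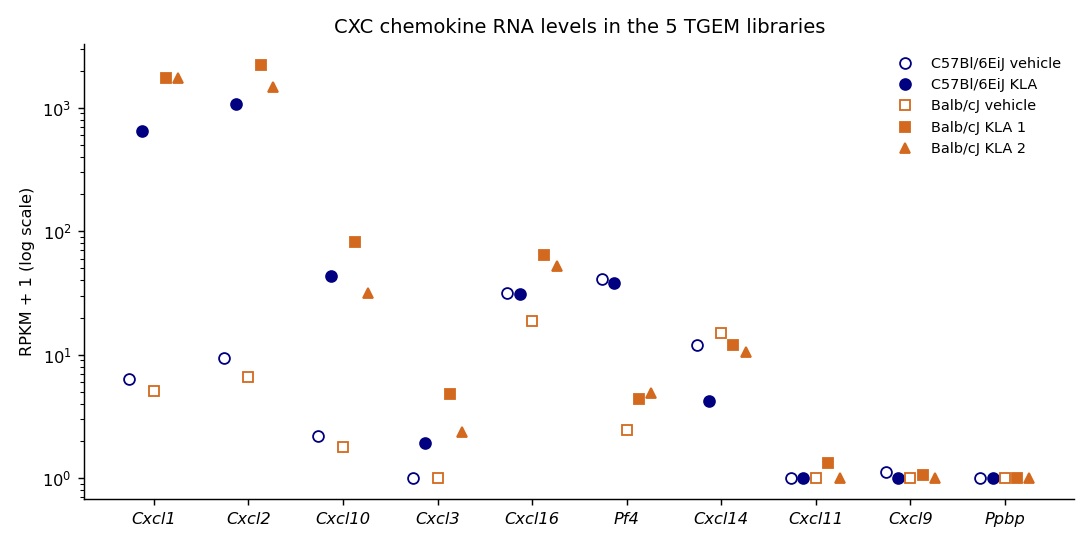
Level of the 10 CXC chemokines in the 5 TGEM libraries (y axis, RPKM + 1 on a log scale, against gene). Open symbols are vehicle and filled symbols KLA, circles C57Bl/6EiJ and other symbols Balb/cJ. For Cxcl1 the KLA libraries sit between 646 and 1752 RPKM and the vehicle libraries at 4.07 and 5.39, and Pf4 is lower in all 3 Balb/cJ than in both C57Bl/6EiJ libraries.

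Between strains, Pf4 was the member that differed. It measured 40.3 and 36.9 RPKM in the C57Bl/6EiJ vehicle and KLA libraries, and 1.46, 3.38 and 3.91 in the Balb/cJ vehicle and KLA libraries, so that strains did not overlap. The Balb/cJ values rest on 2, 34 and 15 reads. The difference of Balb/cJ from C57Bl/6EiJ was -3.47 ± 0.30 on the log2 scale (limma-trend adjusted p = 0.00192). Without the Balb/cJ vehicle library the adjusted p was 0.0531, and without Balb/cJ KLA replicate 1 it was 0.0507. Reads of Balb/cJ libraries were aligned to a genome of that strain, and strain, label date and alignment genome cannot be told apart. Among platelet genes, Gp1ba had 0.579 and 1.13 RPKM in C57Bl/6EiJ (18 and 10 reads) and 0, 0.0850 and 0.390 in Balb/cJ (0, 4 and 7 reads). Gp1bb had 0 and 0.667 RPKM in C57Bl/6EiJ and 1.16, 0.157 and 0.247 in Balb/cJ, Gp9 was at 0 in all 5 libraries, and Gp6 and Itga2b had at most 2 reads in any. The median difference of 7 macrophage markers was -0.98 beside -0.08 over all genes, with Csf1r at 173 and 183 RPKM in C57Bl/6EiJ and 58.6, 83.1 and 72.3 in Balb/cJ (adjusted p = 0.0483). Csf1r was the 1 of these 7 that passed. For Cd68 and Lyz2 the strains overlapped. Cd68 had 2053 and 1769 RPKM in C57Bl/6EiJ and 4050, 2338 and 1404 in Balb/cJ. Lyz2 had 5321 and 5915 RPKM in C57Bl/6EiJ and 6605, 5765 and 7145 in Balb/cJ. The part of the platelet genes and of the macrophage markers in the result was not tested. Pf4 was the 1 of 7 tested members that passed, where 2.31% of all genes passed (0.859% higher, 1.45% lower). Of the genes that passed, 37.2% were higher in Balb/cJ, and 48.7% with library medians made equal. Cxcl14 gave 0.96 ± 0.30 (adjusted p = 0.143), and Cxcl1 0.67 ± 0.41 (adjusted p = 0.376).

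For the interaction of KLA and strain, limma-trend passed 0 of 7 members and 0 of 10357 genes (0%), with 1 residual degree of freedom, while 2 of 7 members and 8.06% of genes had an unadjusted p under 0.05. With the GC trend removed 144 genes passed. Cxcl1 had the value 1.76 ± 0.54 (unadjusted p = 0.0231, adjusted p = 0.587), Cxcl2 1.30 ± 0.65 and Cxcl10 0.54 ± 0.95 (95% interval -1.94 to 3.03).

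Around these ligands, KLA raised genes of the NF-κB feedback circuit. Of 12 tested, 8 rose and 0 fell, where 1.29% of all genes were higher and 0.232% lower, with a median of 2.20 beside -0.15 over all genes. Nfkbiz, an atypical inhibitor-family protein that co-activates NF-κB targets, rose from a mean of 3.67 RPKM to 392 (6.37, limma-trend adjusted p = 1.44e-04), Nfkbia, the inhibitor of NF-κB, from 23.2 to 1189 RPKM (5.64, adjusted p = 1.96e-04) and Zfp36, which promotes decay of AU-rich mRNAs, from 42.4 to 831 RPKM (4.37, adjusted p = 5.80e-04). Of 15 genes of the interferon axis 3 passed, all higher, among them the transcription factor Irf1 (3.74, adjusted p = 7.75e-04) and Isg15 (4.59, adjusted p = 0.00320). The third was the cytokine Ifnb1, with 0 reads in both vehicle libraries and 8, 216 and 52 with KLA, whose call is not read because it met the filter through the KLA libraries alone. Ccrl2 rose from 80.2 to 1042 RPKM (3.59, adjusted p = 0.00320), and it was the 1 of 3 tested receptors that passed. Among 4 tested processing enzymes and 3 tested further CXC ligands, the smallest adjusted p were 0.231 for Mmp8 and 0.261 for Cxcl13. Cxcl5 had 0 reads in the C57Bl/6EiJ vehicle library and 1.29 RPKM in the Balb/cJ vehicle library, and 0.559, 5.69 and 2.30 RPKM with KLA. Cxcr2, the main receptor of the ELR ligands, was at most 0.303 RPKM in any TGEM library, and its relative Cxcr1 was at 0.762 to 6.65 RPKM (2 to 77 reads). Both had 0 reads in iBMDMs.

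Vehicle TGEMs were also set against the immortalized Scramble line. They were higher in Cxcl14 (1.21 ± 0.24, limma-trend adjusted p = 0.00324) and lower in Cxcl10 (-4.18 ± 0.38, adjusted p = 4.97e-05) and Cxcl16 (-1.12 ± 0.21, adjusted p = 0.00251). Cxcl1 was at least 5.92-fold higher, with 67 reads against 0, and although it passed, its call is not read here because it entered the test through the TGEM libraries and was 0 in all iBMDM libraries. Cxcl2 gave 0.14 (95% interval -1.34 to 1.61, adjusted p = 0.877). Pf4 gave -0.67 (adjusted p = 0.0774) over both strains and 1.37 (adjusted p = 0.0129) with the C57Bl/6EiJ vehicle library alone. Without Cxcl1, 3 of 5 tested members passed, where 49.9% of all tested genes passed (16.2% higher, 33.7% lower), and nothing particular to the members is read from this count. Of the genes that passed, 32.5% were higher, and 48.8% with library medians made equal. Cxcl13, a B cell attractant that was not among the 10, had 0 reads in Scramble and 13.6 and 29.5 RPKM in the C57Bl/6EiJ and Balb/cJ vehicle libraries. The cells also differed in other markers: 5 of 5 mesothelial and fibroblast markers had reads in vehicle TGEMs and summed to 30.1 to 37.2 RPKM, against 0 to 0.106 in Scramble, where Msln, Upk3b, Col1a1 and Pdgfra were at 0. The 4 mast cell markers summed to 1.78 to 6.56 RPKM against 0. Of 7 macrophage markers, 5 were lower and 2 higher in vehicle TGEMs by the same test. The part of these markers in the differences was not tested.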

How the data were processed

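PolyA RNA-seq of 13 libraries was used; 4 samples of nascent RNA (GRO-seq) were not used here. The values are RPKM as deposited: per the labels and file header, the authors aligned reads with STAR, using mm10 except for Balb/cJ reads, which went to that strain's genome, and summed exonic reads with HOMER. Versions are not given in the sources used here. RPKM moves in steps of 1 read, which gave depths and whole reads: all values up to 50 reads were whole within 0.05 or within rounding.

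Gene models averaging 1 RPKM or more in the fitted libraries entered limma-trend on log2(RPKM + 1), two-sided, Benjamini-Hochberg adjusted over all of them: 4 groups over 8 iBMDM libraries (4 residual degrees of freedom), treatment and strain over 5 TGEM libraries (2), and all groups over 13 for TGEM vehicle against Scramble (5). The members and lists were chosen with earlier results of these data known. All members are named, and of each list described up to 3 passing genes with the smallest adjusted p; Mmp9, Ifnb1, Cxcl5, Cxcl13, Cxcr1 and Cxcr2 values were added for context. The fit was tested on simulated data. Intervals and limits from reads cover counting error only. The RefSeq promoter table gave sequences. Software was Python 3.11.15, R 4.3.3 and limma 3.58.1. Some marker genes, and sums that hold them, are not reported here.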

Additional observations from a re-analysis of the deposited data

How the results depend on the processing

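Of 57 tests of a member, 25 passed; 14 of these passed in every alternative run and 0 reversed. For Atf3KO against Scramble the 4 passing members became 2 under the study's limits of 2-fold and 16 RPKM, and 2 to 3 with 1 library left out. For JunKO against Scramble the 1 (Pf4) became 0 with a pseudocount of 0.25, no filter, equal library medians, limma-voom, the replicate block, without the Atf3KO libraries and in 1 fit of all 13 libraries, and 0 to 1 with 1 library left out. For Atf3KO against JunKO the 3 became 1 under the study's limits and with a GC trend removed, and 1 to 2 with 1 library left out. Between strains the 1 became 2 with limma-voom (Cxcl1 added) and 0 to 1 with 1 library left out. For TGEM vehicle against Scramble the 4, Cxcl1 included, became 2 under the study's limits. With 1 library left out, JunDKO against Scramble gave 2 to 3 and KLA 2 to 3. For JunDKO, Cxcl10 was in none of these, and the third call without a Scramble library was Ppbp, which met the filter through the JunDKO libraries, where it is high, once a library at 0 was dropped.

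Members that changed sign had not passed. With equal medians Cxcl16 was -0.024 in JunDKO against Scramble and -0.083 against JunKO. With the GC trend removed Cxcl16 was -0.22 in Atf3KO against JunDKO and -0.057 against JunKO, and between strains Cxcl2 was -0.10 and Cxcl10 -0.17. Cxcl2 in Atf3KO against JunDKO was 0.15 with quantile normalization and 1.63 with limma-voom. Pf4 with KLA was -0.029 with limma-voom and -0.11 without the strain term, Cxcl10 between strains -0.077 with a pseudocount of 0.25, and the Cxcl3 interaction -0.86 with limma-voom. Pf4 in TGEM vehicle was 1.37 with C57Bl/6EiJ alone. With 1 library left out the range was -0.37 to 0.22 for Cxcl14, -0.12 to 0.30 for Cxcl16, -1.17 to 0.26 for Cxcl2 in JunKO against Scramble, -1.77 to 0.22 for Cxcl2 in Atf3KO against JunDKO, -0.028 to 0.39 for Cxcl16 in JunDKO against JunKO, -0.021 to 1.62 for Cxcl16 and -0.12 to 0.91 for Pf4 with KLA, -0.33 to 1.43 for Cxcl1, -0.53 to 0.76 for Cxcl2, -0.38 to 0.31 for Cxcl10, -0.75 to 0.89 for Cxcl16 between strains, -0.14 to 0.42 for Cxcl2 and -2.70 to 1.37 for Pf4 in TGEM vehicle against Scramble. The causes were not tested.

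No label ties replicate numbers to a shared batch, and they were not taken as pairs. Same-numbered libraries deviated together among Scramble, JunKO and JunDKO (correlations of 0.185 to 0.225) and oppositely in pairs with Atf3KO (-0.215 to -0.120). The replicate block made the 3 of Atf3KO against JunKO 2 and the 1 of JunKO against Scramble 0. Beyond JunKO, the block ended the call of Cxcl2 in Atf3KO against JunKO (adjusted p = 0.0553). Counts over all genes ranged over the alternatives from 1339 to 4636 for Atf3KO against Scramble (4409 in the reported fit), 14 to 103 for JunKO against Scramble (30 in the reported fit), 409 to 2364 for JunDKO against Scramble (1256 in the reported fit), 1307 to 5853 for Atf3KO against JunDKO (4355 in the reported fit), 1038 to 4023 for Atf3KO against JunKO (3792 in the reported fit), 228 to 1970 for JunDKO against JunKO (870 in the reported fit), 28 to 440 for KLA (158 in the reported fit), 32 to 636 for strain (239 in the reported fit), 2170 to 7203 for TGEM vehicle against Scramble (5456 in the reported fit), and 0 to 144 for the interaction (0). Leaving out 1 library could not be run for the interaction, since no group or no residual degree of freedom was left. Where 1 library was left in a group, its spread was taken from the rest. Depth limits Cxcl2 in iBMDMs, Cxcl3, Cxcl9, Cxcl11 and Ppbp, which rest on few reads. The 0 of Cxcl2 in JunDKO, however, stands in the deepest library.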

Other observations

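The genes whose levels followed a CXC chemokine most closely were listed by Pearson's r of log2(RPKM + 1) over the libraries of 1 kind of cell, among genes with a mean of at least 16 RPKM. These values describe 5 or 8 points that share libraries, depth and groups, and they carry no test. Over the 5 TGEM libraries the nearest to Cxcl1 were Rasgef1b (r = 1.000), Cd40 (0.998) and Il1b (0.998), the nearest to Cxcl2 were Nfkbie, Tnf and Prdm1 (each 0.999), and the nearest to Cxcl10 were Sod2 (0.999), Noct (0.995) and Prdm1 (0.994). Il1b and Tnf encode inflammatory cytokines, and Nfkbie encodes an inhibitor of NF-κB. The nearest to Pf4 in TGEMs were Trafd1 (1.000), Psmb7 (0.999) and Gsn (0.998). Over the 8 iBMDM libraries the nearest to Pf4 were Echs1 (0.981), Uvrag (0.972) and Polr1c (0.961), to Cxcl14 Dcaf7 (0.982), Rmnd5a (0.981) and Ubr2 (0.978), and to Cxcl10 Pcna (0.976), Eef1e1 (0.975) and Ccdc58 (0.966).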
